A study of Homo sapiens with 15 samples.

Results

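The genes described here are the nuclear genes of respiratory complex I and its relatives, taken as every protein-coding gene whose symbol starts with NDUF and which is present in both count tables of the series. The rule gave 48 genes of the 62700 in the tables, of which 20046 are protein-coding. By their known place in the enzyme, 37 code for subunits, 8 are the assembly factors NDUFAF1 to NDUFAF8, and 3 carry an NDUF symbol without belonging to either class (NDUFA4, NDUFA4L2 and the readthrough gene NDUFC2-KCTD14). The 37 subunits divide into 7 core subunits, 9 accessory subunits of the matrix arm, 9 of the proximal membrane arm, 11 of the distal membrane arm, and NDUFAB1, the mitochondrial acyl carrier protein.

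The RNA came from 143B, an established human osteosarcoma cell line, in 5 groups of 3 libraries. Non-OSC cells (genotype WT) grew attached in serum-containing medium. OSC cells (genotype WT) are the same line grown as floating spheres in serum-free medium with growth factors, the condition used in the study to obtain osteosarcoma stem cells. The other 3 groups were sphere cultures carrying a lentiviral hairpin, either a control hairpin (shCtrl, labelled WT) or one of 2 hairpins against PDK1 (shPDK1_1 and shPDK1_2). PDK1, pyruvate dehydrogenase kinase 1, shuts down the enzyme complex that turns pyruvate into acetyl-CoA, and the study asked what its loss does to sphere cells. OSC and non-OSC differ in medium and attachment together, so these cannot be told apart, and all groups come from 1 line. The labels do not say whether the libraries of a group came from separate cultures, so p-values measure the spread between these libraries, which may be technical.

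Complex I, NADH:ubiquinone oxidoreductase, is the largest enzyme of the respiratory chain. Its matrix arm takes electrons from NADH and leads them through a row of iron-sulfur clusters to ubiquinone, and its membrane arm uses the energy released to pump protons. Most of its subunits are made from nuclear genes and imported, and the proton-pumping core of the membrane arm is encoded by the mitochondrial genome. Assembly factors help to build the enzyme and are absent from the finished complex.

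Each library held 7992499 to 11256536 counts, and the 48 genes took 0.244% to 0.3307% of them. PDK1 itself, the check on the labels, was at 45.2 ± 1.28 CPM (counts scaled to a common library size; mean ± SD, n = 3) in shCtrl, 28.1 ± 0.844 in shPDK1_1 and 19.8 ± 1.65 in shPDK1_2, and at 46.6 ± 4.47 in non-OSC and 70.3 ± 3.03 in OSC. Among osteoblast lineage markers, RUNX2 and COL1A1 were present in every library and ALPL had 8 to 28 counts. SP7 and IBSP had at most 1 count and BGLAP at most 7, so these lineage markers were at or near 0. Of the markers of blood, endothelial and epithelial cells, PTPRC had 0 to 2 counts and PECAM1 0 to 15. EPCAM had 8 to 44 counts, a range that reached above that of ALPL. From non-OSC to OSC, COL1A1 rose from 417 ± 31.2 to 1056.5 ± 62.4 CPM, RUNX2 fell from 37.7 ± 0.945 to 17.3 ± 2.78 CPM, and ALPL had 2.66 ± 0.379 and 1.49 ± 0.683 CPM without passing the test. The part of these markers in the results for complex I genes was not tested.

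In all, 46 of the 48 genes passed the filter on low counts. NDUFA4L2, a relative of NDUFA4 known as a hypoxia-induced gene, had 0 to 5 counts in a library, and NDUFC2-KCTD14 had 0 to 10, so neither could be compared between groups at this depth. Per kilobase of canonical transcript, the subunits of non-OSC cells ranged from 3.5 CPM for NDUFV3 to 263 CPM for NDUFB9, with a median of 70.9 CPM. The 8 assembly factors ranged from 2.1 CPM for NDUFAF5 to 48.5 CPM for NDUFAF8, with a median of 12.2 CPM, and 22 of the 37 subunits lay above the highest of them. In the other groups 27 to 31 subunits lay above the highest assembly factor. Within the core, NDUFV1 and NDUFS8 had the highest levels per kilobase in non-OSC, 208 and 203 CPM, and NDUFS1 the lowest, 15.8 CPM. NDUFS1 also has the longest canonical transcript of the core subunits, 11660 bases, and a level per kilobase falls where much of the annotated transcript is not made. NDUFV3 and NDUFAF5, the lowest of their classes, have canonical transcripts of 5725 and 5449 bases. The comparison of subunits with assembly factors per kilobase has the same limit.

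**Figure D1:**
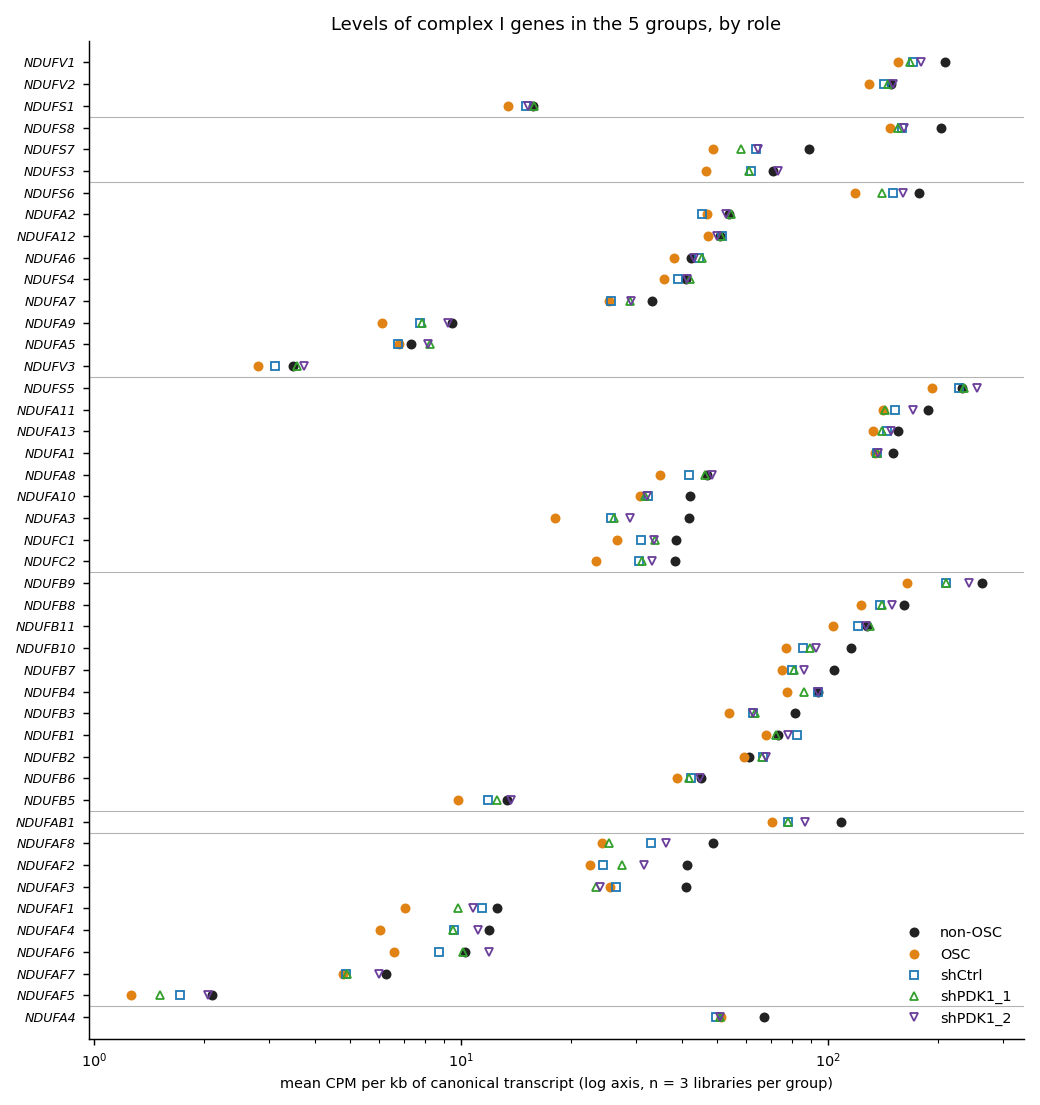
Mean level of 45 of the 46 tested genes in the 5 groups, in CPM per kilobase of canonical transcript on a log axis (n = 3 libraries per group), ordered by role. Assembly factors, from 2.1 to 48.5 CPM in non-OSC, lie in the lower part of the range that the subunits span, and the OSC points lie to the left of the non-OSC points for every gene shown.

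The first question was how sphere culture and attached culture differ in these genes. All 46 genes were lower in OSC than in non-OSC by their fitted fold change, and 38 of them fell with an adjusted p under 0.05 (edgeR quasi-likelihood test, Benjamini-Hochberg over 14287 genes). Of all genes tested, 31.5% were called lower and 32.4% higher, so the share of complex I genes called lower was above that background, and 0 of the 46 were called higher. At an unadjusted p under 0.05, 39 were lower and 0 higher, and DESeq2 called 36 lower and 0 higher. The median log2 fold change of the 46 genes was -0.42, against -0.01 over all genes. For 38 of the 46, every OSC library lay below every non-OSC library, which held for 33% of all genes. As these are bulk libraries, fewer cells with these transcripts and less of them per cell cannot be told apart.

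**Figure D2:**
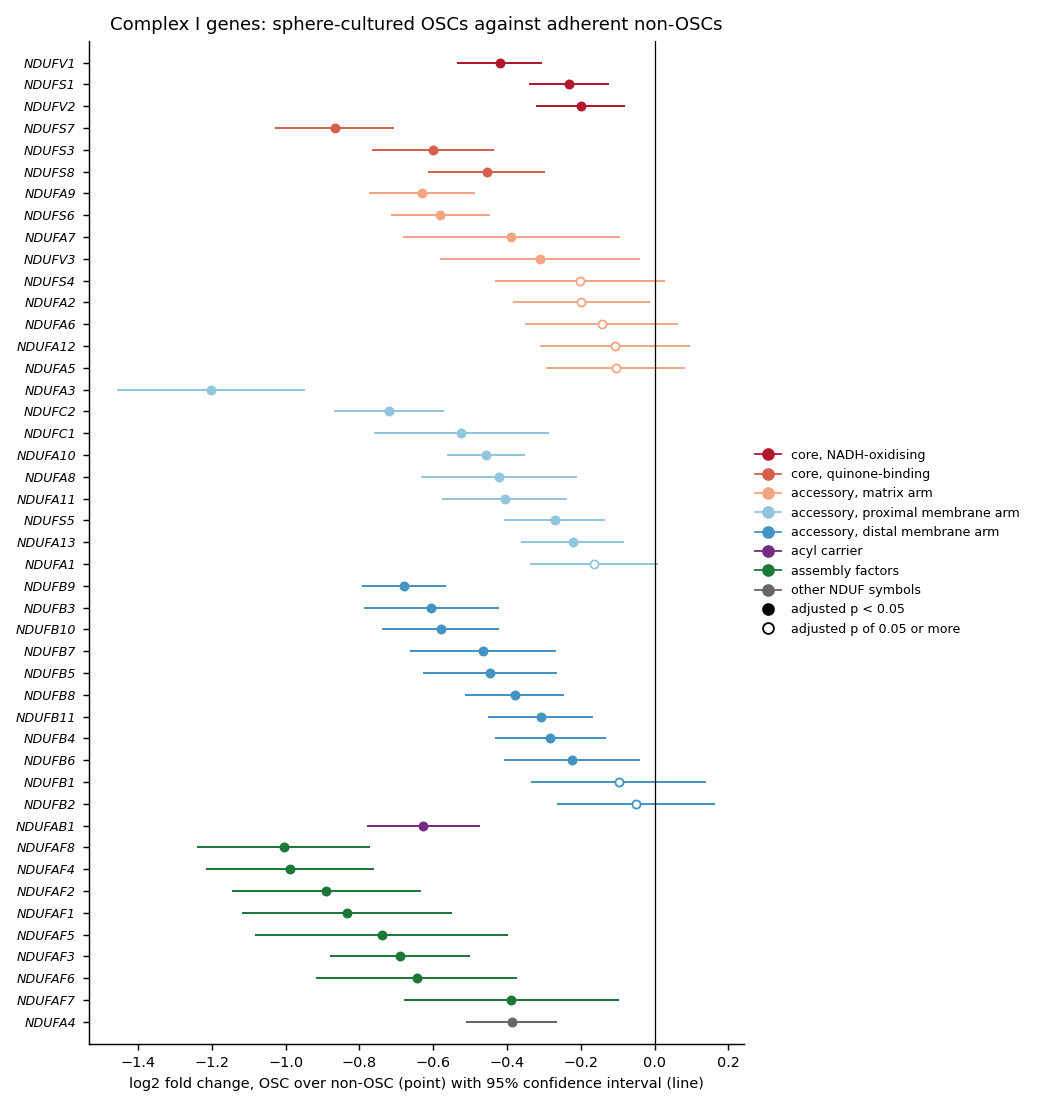
Log2 fold change of OSC over non-OSC for 45 of the 46 tested genes (points) with 95% confidence intervals (lines), by role, filled where the adjusted p was under 0.05. Every point lies below 0, from -1.20 for NDUFA3 to -0.05 for NDUFB2, and all 8 assembly factors and all 6 core subunits shown are filled.

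All 3 core subunits that oxidise NADH fell, by modest amounts, beside 31.5% of all genes called lower. NDUFV1, which binds NADH and its flavin cofactor, was at 295, 348 and 331 CPM in the 3 non-OSC libraries and at 237, 245 and 245 CPM in the 3 OSC libraries. NDUFV2, which carries the iron-sulfur cluster beside it, was at 133, 125 and 125 CPM in non-OSC and at 115, 111 and 107 CPM in OSC. NDUFS1, which holds the next clusters of the row, was at 182, 183 and 186 CPM in non-OSC and at 163, 151 and 155 CPM in OSC. None of these 3 genes had overlapping groups. Their log2 fold changes were -0.42 ± 0.05 (SE), -0.20 ± 0.06 and -0.23 ± 0.05, with adjusted p of 6.48e-07, 0.00416 and 0.000446 (edgeR).

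The 4 core subunits around the ubiquinone site also fell, beside 31.5% of all genes. Their median log2 fold change was -0.53, against -0.23 for the 3 that oxidise NADH. The values of both sets overlap, and the difference was not tested. NDUFS7, which carries the last cluster before ubiquinone, was at 64.6, 66.2 and 71.1 CPM in non-OSC and at 36.6, 36.9 and 37.1 CPM in OSC. NDUFS3 was at 58.9, 66.9 and 64.3 CPM in non-OSC and at 39.9, 42.0 and 43.4 CPM in OSC. In both genes all OSC libraries lay under all non-OSC libraries, and NDUFS7 in OSC was at 54.8% of its non-OSC level. NDUFS8, which holds the clusters that lead to NDUFS7, was at 132, 169 and 149 CPM in non-OSC and at 99.9, 115 and 113 CPM in OSC. Its groups did not overlap either. The log2 fold changes were -0.87 ± 0.08 for NDUFS7, -0.60 ± 0.08 for NDUFS3 and -0.46 ± 0.08 for NDUFS8, with adjusted p between 1.85e-09 and 1.84e-05 (edgeR).

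Of the 9 accessory subunits of the matrix arm, 4 fell and 5 did not pass the test, beside 31.5% of all genes called lower. The median log2 fold change of the 9 was -0.20. NDUFA9, which sits where the matrix arm meets the membrane, changed by -0.63 ± 0.07 and NDUFS6, a zinc-binding subunit, by -0.58 ± 0.06. NDUFA7 and NDUFV3 fell by 0.39 and 0.31 on the log2 scale, and both calls depended on the processing. NDUFV3 lost its call in 8 of 11 alternatives, among them DESeq2, library size alone and 5 fits without 1 library, and its log2 fold change was -0.19 without non-OSC replicate 3. NDUFA7 lost it in 2, without non-OSC replicate 3 (-0.33) and without OSC replicate 1 (-0.23). The other 5, namely NDUFS4, NDUFA2, NDUFA6, NDUFA12 and NDUFA5, had fold changes between -0.20 and -0.11. NDUFA2 had OSC libraries at 29.1 to 31.5 CPM and non-OSC libraries at 33.6 to 35.9 CPM, which do not overlap, with an adjusted p of 0.054 (edgeR).

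The proximal membrane arm held the largest change of all. NDUFA3, a small subunit of this arm (chr19:54102728-54109257, plus strand, GRCh38), was at 34.4, 41.2 and 43.3 CPM in non-OSC and at 13.6, 19.1 and 18.6 CPM in OSC. The groups lay far apart, the OSC mean was 43.1% of the non-OSC mean, and the log2 fold change was -1.20 ± 0.12 (adjusted p 1.64e-08, edgeR). In all, 8 of the 9 genes of this arm fell, beside 31.5% of all genes, with a median of -0.42 over the 9. NDUFA1 had -0.16 and an adjusted p of 0.087 (edgeR). NDUFC2 fell by 0.72, NDUFC1 by 0.52, NDUFA10 by 0.46, NDUFA8 by 0.42 and NDUFA11 by 0.41 on the log2 scale. NDUFS5 and NDUFA13, the latter also known as GRIM-19, fell by 0.27 and 0.22.

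In the distal membrane arm 9 of 11 genes fell, beside 31.5% of all genes, with a median of -0.38 over the 11. NDUFB9 fell most, from 178, 178 and 189 CPM in non-OSC to 112, 112 and 117 CPM in OSC, a log2 fold change of -0.68 ± 0.05 (adjusted p 3.15e-10, edgeR). NDUFB3, NDUFB10, NDUFB7 and NDUFB5 followed with -0.61, -0.58, -0.47 and -0.45. NDUFB6 fell by 0.22, although 1 of its OSC libraries, at 59.8 CPM, lay within the non-OSC range of 57.9 to 66.0 CPM. It lost its call in 4 of 11 alternatives, with library size alone (-0.19) and without non-OSC replicate 1 (-0.17), OSC replicate 1 (-0.22) or OSC replicate 2 (-0.13). NDUFB2 was nearest to no difference of all 46 genes, at 27.0, 29.9 and 28.5 CPM in non-OSC and 25.9, 25.4 and 31.3 CPM in OSC, and the 95% interval of its log2 fold change ran from -0.26 to 0.16. NDUFB1 did not pass the test either, with -0.10 and an interval from -0.33 to 0.14. NDUFAB1, which also serves mitochondrial fatty acid synthesis and iron-sulfur cluster assembly, fell by 0.63 on the log2 scale.

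All 8 assembly factors fell, beside 31.5% of all genes, with a median log2 fold change of -0.79 against -0.40 for the 37 subunits. NDUFAF8 (chr17:81239305-81241310, plus strand), the partner of NDUFAF5, was at 28.2, 28.6 and 25.6 CPM in non-OSC and at 14.8, 13.6 and 12.7 CPM in OSC. NDUFAF4 (chr6:96889315-96897891, minus strand), which acts on the ubiquinone-binding part together with NDUFAF3, was at 30.1, 27.1 and 29.0 CPM in non-OSC and at 14.5, 13.6 and 15.5 CPM in OSC. In both, OSC cells had about 50% of the non-OSC level, 49.9% for NDUFAF8 and 50.5% for NDUFAF4, and no OSC library reached any non-OSC library. NDUFAF2, which takes the place of NDUFA12 during assembly, was at 29.9, 22.5 and 26.2 CPM in non-OSC and at 14.9, 13.4 and 14.4 CPM in OSC. The log2 fold changes of these 3 were -1.01 ± 0.11, -0.99 ± 0.11 and -0.89 ± 0.12, with adjusted p of 7.36e-08, 5.73e-08 and 1.51e-06 (edgeR).

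The other 5 NDUFAF genes lay between -0.39 and -0.83. NDUFAF1, part of the machinery for the membrane arm, fell by 0.83, NDUFAF5, which modifies an arginine of NDUFS7, by 0.74, NDUFAF3 by 0.69, NDUFAF6 by 0.65 and NDUFAF7, a methyltransferase, by 0.39 on the log2 scale. NDUFAF7 lost its call in 3 of 11 alternatives, with DESeq2 and without non-OSC replicate 3 (-0.36) or OSC replicate 1 (-0.33). The difference between assembly factors and subunits is given by medians and counts and was not tested. The 8 assembly factors also have fewer counts than most subunits, and their standard errors ran from 0.09 to 0.16. NDUFA4, once counted as a subunit of complex I and now placed in cytochrome c oxidase, was at 143, 139 and 128 CPM in non-OSC and at 102 to 106 CPM in the 3 OSC libraries, a log2 fold change of -0.39 ± 0.06 (adjusted p 5.44e-06, edgeR).

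**Figure D3:**
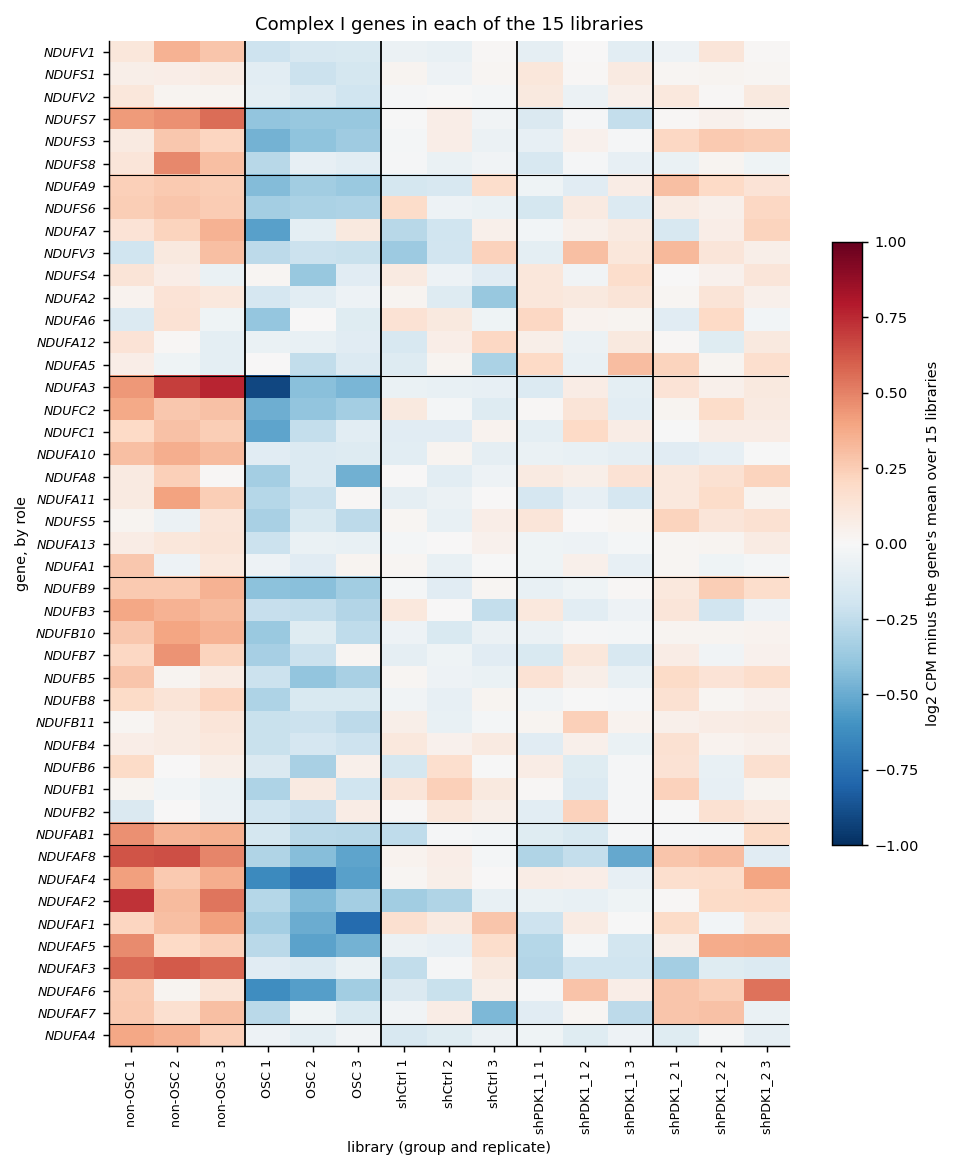
Log2 CPM of 45 of the 46 tested genes in each of the 15 libraries, each gene relative to its mean over the 15 libraries and shown as colour from 1 log2 unit below (blue) to 1 above (red), ordered by role. The 3 non-OSC columns are red and the 3 OSC columns blue for most genes, with NDUFA3 and the assembly factors the deepest.

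Because the genes moved together, their promoters were searched for short words bound by factors known to act on nuclear genes of mitochondrial proteins. RefSeq promoter windows (GRCh38.p14, 250 bases before to 50 after the start) were at hand for 40 of the 48 genes. Those without a window included NDUFA4, NDUFA4L2, NDUFAF6, NDUFB5, NDUFB9, NDUFC2 and NDUFS5. The words, searched on both strands, were GCATGCGC for NRF1, AAGATGGC for YY1, AAGGTCA for the estrogen-related receptors and CCGGAAG for ETS factors. GCATGCGC overlaps its own reverse complement, so 1 site can match on both strands, and the last 3 letters of CCGGAAG can be the first 3 of AAGATGGC or AAGGTCA. The YY1 word was in the windows of 8 of the 40 genes (20%), against 3.52% of all 27305 genes with a window. In all 8 it lay on the sense strand downstream of the start, which 1.57% of all genes had. AAGATGGC holds ATG, the letters of a start codon, and the place of the start codon in these windows was not looked up. The 27305 genes are more than the 20046 protein-coding genes, so these shares include genes that code for no protein. The first 30 transcribed bases are shown, with the word in capitals, for 4 genes that fell in OSC and 1 that did not pass the test (NDUFS4). For NDUFA6, which did not pass it either, the word ends at position 33 and the window is shifted by 3 bases.
NDUFA3, chr19:54102855-54102884, plus strand: gctgtcgccgccgcggagacaAAGATGGCt
NDUFAF8, chr17:81239311-81239340, plus strand: ggaagaggacggacctAAGATGGCggcctc
NDUFS7, chr19:1383907-1383936, plus strand: gtctgaaggccgaggccAAGATGGCggtgc
NDUFA9, chr12:4649114-4649143, plus strand: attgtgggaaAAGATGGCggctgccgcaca
NDUFS4, chr5:53560639-53560668, plus strand: atcctggcgtttgcctgcagcAAGATGGCg
NDUFA6, chr22:42090740-42090769, minus strand: gttgtggagtggatgctttggcAAGATGGC

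The NRF1 word was also in the windows of 8 of 40 genes (20%), against 3.68% of all genes. It is shown in capitals, as read on the gene's own strand, for 4 genes that fell in OSC, with 30 bases around it.
NDUFAF4, chr6:96897867-96897896, minus strand: ccctcacttgtGCGCATGCtccgggtgtcc
NDUFS7, chr19:1383823-1383852, plus strand: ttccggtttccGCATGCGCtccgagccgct
NDUFS6, chr5:1801350-1801379, plus strand: ccagaagccgtGCGCATGCgttagcgctaa
NDUFA8, chr9:122159763-122159792, minus strand: ttgccggatgcGCATGCGCaggcgccgtgt

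The word for the estrogen-related receptors was in 4 of 40 genes (10%, against 4.8% of all genes) and the ETS word in 7 of 40 (17.5%, against 12.2%). NDUFS7, with the largest change of the core, was the gene with the NRF1, YY1 and estrogen-related receptor words together. The fold changes in OSC did not separate genes with a word from genes without it. The 8 genes with the YY1 word ran from -1.20 to -0.14 with a median of -0.51, and the 31 tested genes without it ran from -0.99 to -0.05 with a median of -0.42. For the NRF1 word the medians were -0.50 with and -0.41 without. A match is a stretch of letters, and binding was not measured. The shares over all genes with a window include genes that did not pass the filter on low counts.

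Of the factors that act on such genes, PPARGC1B, a coactivator of mitochondrial biogenesis, fell from 64.7 ± 2.51 CPM in non-OSC to 19.8 ± 0.491 CPM in OSC, a log2 fold change of -1.71 ± 0.09 (adjusted p 1.4e-13, edgeR). TFAM, which packs and transcribes mitochondrial DNA, fell by 0.94 on the log2 scale. Of the 9 regulators listed, 4 fell, 1 rose and 4 did not pass the test, beside 31.5% lower and 32.4% higher among all genes, so the share that fell was near that background. The one that rose was YY1, from 219.6 ± 11.2 to 287 ± 7.12 CPM, and NRF1 had 22.3 and 22.4 CPM in the 2 groups with a log2 fold change of 0.01.

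The fall reached the rest of the enzyme and of the respiratory chain, beside 31.5% of all genes called lower. All 13 assembly factors of complex I outside the NDUF family fell, with a median of -0.61, most of all TMEM126A (-1.06 ± 0.16) and ECSIT (-0.85 ± 0.10). Of the 7 mitochondrially encoded subunits, 5 fell, each by less than the median of -0.42 of the 46 NDUF genes. The median of all 7 was -0.23. In 3 of the 7 every OSC library lay below every non-OSC library, against 33% of all genes. MT-ND5, a proton-pumping subunit, went from 1178.2 ± 52.0 CPM in non-OSC to 896 ± 26.8 CPM in OSC, and MT-ND4 and MT-ND4L, which share 1 transcript, had 0.04 and 0.08 and did not pass the test. Of 38 nuclear genes of complexes II to V, 35 fell, led by ATP5MC1 of ATP synthase (-1.26 ± 0.09) and SDHB of complex II (-1.02 ± 0.07). The median of all 38 was -0.54. All 7 genes for other mitochondrial proteins fell, with a median of -0.69, led by TOMM22 of the import pore (-1.18 ± 0.08) and the chaperone HSPD1 (-1.12 ± 0.04). The complex I median of -0.42 was thus within the range of these lists, and a test between lists was not made.

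Gene length moved with the same comparison. Genes were split by canonical transcript length into 4 classes of equal size. The shortest class, up to 1941 bases, had a median log2 fold change of -0.13, and the longest had 0.10. Of the 46 complex I genes 35 were in the shortest class, where their median was -0.42. The 5 in the longest class had a median of -0.31. The part of length in the result was not tested.

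The second question was what PDK1 knockdown did to these genes in spheres. With shPDK1_1, 0 of the 46 genes passed the test in either direction (edgeR), where 1.62% of all 14574 genes were called higher and 1.44% lower. At an unadjusted p under 0.05, 2 were higher and 1 lower, and DESeq2 called 0. The median log2 fold change was 0.01, against 0.00 over all genes, with 26 genes above 0 and 20 below. The fold changes ran from -0.38 for NDUFAF8 to 0.28 for NDUFA5, and the 95% intervals of all 46 lay between -0.64 and 0.49, with a median half-width of 0.165. Changes of the size seen between OSC and non-OSC in NDUFA3, NDUFAF4 and NDUFS7 were therefore outside those genes' intervals.

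NDUFAF8 was at 18.7, 19.1 and 18.0 CPM in shCtrl and at 14.8, 15.5 and 12.8 CPM in shPDK1_1, so that its libraries did not overlap, with an adjusted p of 0.101 (edgeR). NDUFA5, an accessory subunit of the matrix arm, was at 37.2, 41.6 and 32.7 CPM in shCtrl and at 46.8, 38.7 and 50.4 CPM in shPDK1_1, and these ranges overlap. Its adjusted p was 0.125, and it passed the test without replicate 2 of shPDK1_1 (38.7 CPM), where the count of genes called higher was 1. NDUFA2 had 0.26 and an adjusted p of 0.15 (edgeR). The other assembly factors had log2 fold changes of -0.21 for NDUFAF1, -0.18 for NDUFAF3, -0.17 for NDUFAF5, -0.01 for NDUFAF4 and NDUFAF7, 0.18 for NDUFAF2 and 0.22 for NDUFAF6. NDUFB1 and NDUFV3 had -0.20 and 0.22, and NDUFA4 had 0.04.

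With shPDK1_2, the hairpin after which PDK1 was lower, 10 of the 46 genes rose and 0 fell (edgeR). The background was 12% of all genes called higher and 14.2% called lower. At an unadjusted p under 0.05, 14 were higher and 0 lower, and DESeq2 called 6 higher and 0 lower. The median log2 fold change was 0.11, against 0.01 over all genes, with 39 genes above 0. In 15 of the 46 every shPDK1_2 library lay above every shCtrl library, against 19.5% of all genes. The changes were small, none above 0.46, and the count rested on single libraries. It was 5 without shCtrl replicate 1, 4 without shCtrl replicate 2, 4 without shPDK1_2 replicate 1 and 5 without shPDK1_2 replicate 3, and 3 of the 10 genes (NDUFAF6, NDUFS3 and NDUFB9) passed under every alternative.

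The largest rises were in 2 of the 8 assembly factors, beside 12% of all genes called higher. NDUFAF6, required for building the membrane arm around MT-ND1, was at 15.1, 14.4 and 17.4 CPM in shCtrl and at 20.2, 19.8 and 24.4 CPM in shPDK1_2, a log2 fold change of 0.46 ± 0.12 (adjusted p 0.00453, edgeR). NDUFAF2 was at 14.3, 14.8 and 17.3 CPM in shCtrl and at 18.3, 20.7 and 20.8 CPM in shPDK1_2, a change of 0.37 ± 0.11 (adjusted p 0.0133, edgeR). Both genes had groups that did not overlap. The other 6 assembly factors did not pass the test, with log2 fold changes of -0.15 for NDUFAF3, -0.08 for NDUFAF1, 0.14 for NDUFAF8, 0.26 for NDUFAF5 and 0.29 for NDUFAF7. The last of them, NDUFAF4, had 0.22 with an adjusted p of 0.0908 (edgeR). NDUFA4 had 0.04.

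Of the 7 core subunits 1 rose, a share near the 12% of all genes called higher with shPDK1_2. NDUFS3 was at 54.8, 58.1 and 53.3 CPM in shCtrl and at 63.9, 66.4 and 65.6 CPM in shPDK1_2, with no overlap and a log2 fold change of 0.23 ± 0.07 (adjusted p 0.00831, edgeR). The other 6 did not pass the test, and the 5 of them given here had fold changes between 0.01 and 0.08. NDUFV1 was at 263, 260.1 and 276 CPM in shCtrl, at 256, 274 and 254 CPM in shPDK1_1 and at 264, 298 and 276 CPM in shPDK1_2, and these ranges overlap. NDUFS7 was at 48.0, 50.3 and 47.1 CPM in shCtrl, at 43.7, 47.7 and 40.7 CPM in shPDK1_1 and at 48.5, 49.7 and 48.9 CPM in shPDK1_2. Both hairpin groups overlapped shCtrl for NDUFS7, and all shPDK1_2 libraries lay above all shPDK1_1 libraries with an adjusted p of 0.162 (edgeR). NDUFS8 was at 119.9, 116 and 118 CPM in shCtrl, at 108, 120.2 and 114 CPM in shPDK1_1 and at 116, 123 and 117 CPM in shPDK1_2, and NDUFS1 was at 179, 169 and 178, at 190.1, 177 and 186, and at 178, 178 and 178 CPM in the same groups. The groups overlap for both genes. NDUFV2 was at 122, 122 and 121 CPM in shCtrl, at 131, 118 and 127 CPM in shPDK1_1 and at 132, 123 and 131 CPM in shPDK1_2, the last of these above every shCtrl library with an adjusted p of 0.255 (edgeR).

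Of the 30 accessory subunits, NDUFAB1 included, 7 rose with shPDK1_2, beside 12% of all genes called higher. These 7 were spread over all 3 regions. In the matrix arm, NDUFA5 rose by 0.27 ± 0.10 and NDUFA9 by 0.27 ± 0.08, although 1 shCtrl library of NDUFA9, at 75.3 CPM, lay within the shPDK1_2 range of 73.0 to 82.2 CPM. In the proximal membrane arm, NDUFA8 rose by 0.21, NDUFA11 by 0.16 and NDUFS5 by 0.16. In the distal membrane arm, NDUFB9 was at 146, 138 and 151 CPM in shCtrl and at 160.1, 177 and 168 CPM in shPDK1_2, a change of 0.22 ± 0.05 (adjusted p 0.00206, edgeR), and NDUFB5 rose by 0.20. The adjusted p of the other accessory subunits named here lay between 0.0138 and 0.0477 (edgeR). The highest of these, for NDUFA8, passed under 3 of the 15 alternatives.

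**Figure D4:**
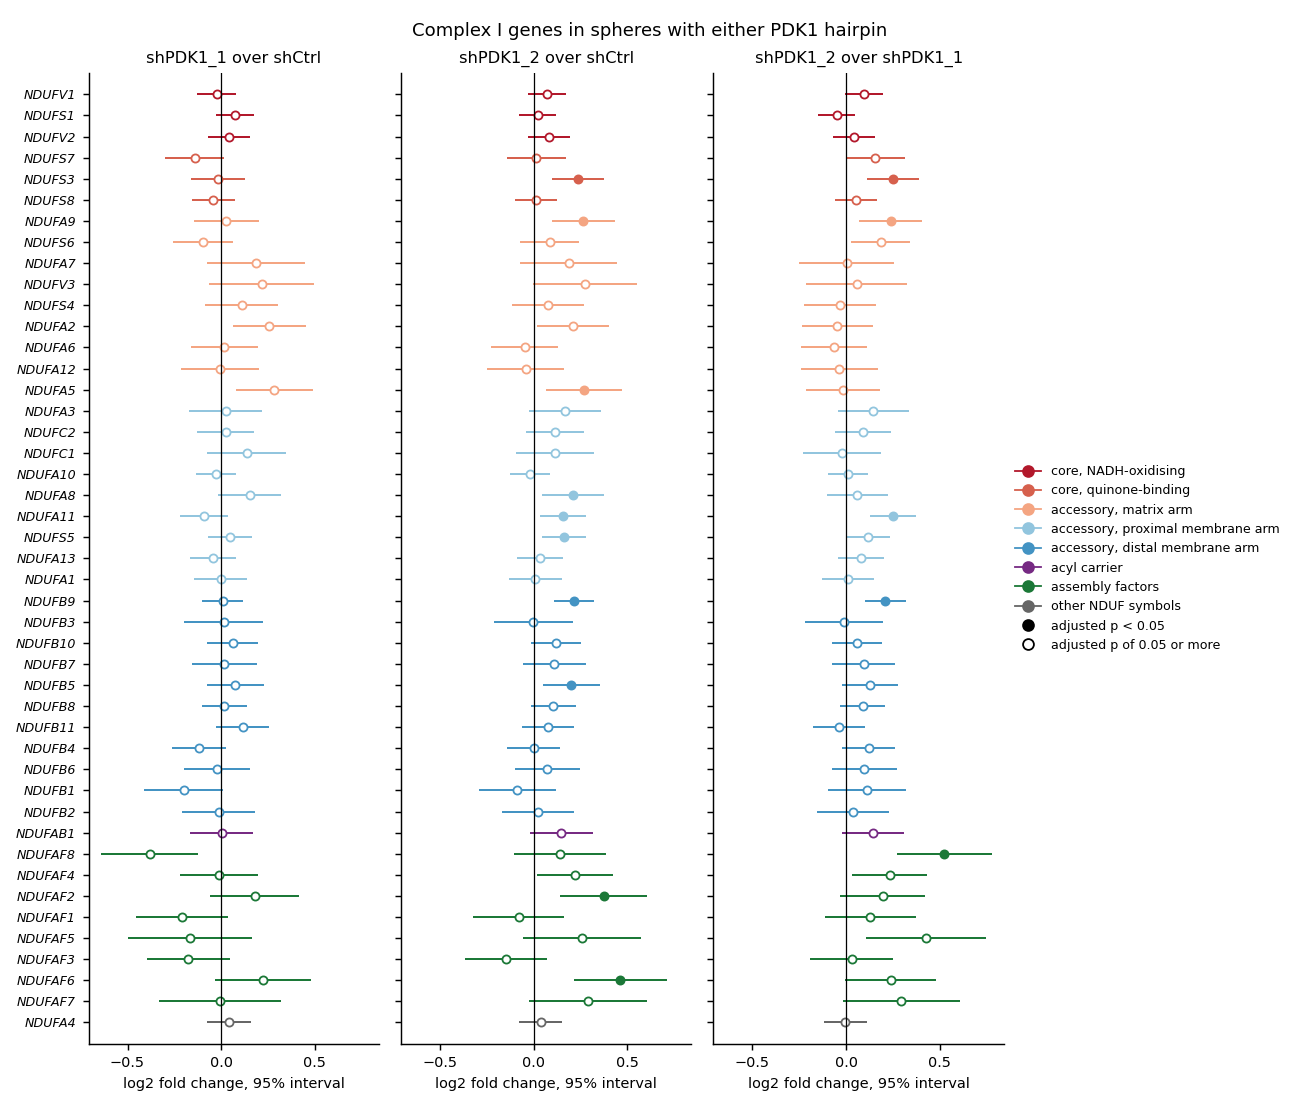
Log2 fold changes (points) with 95% confidence intervals (lines) of 45 of the 46 tested genes for shPDK1_1 over shCtrl, shPDK1_2 over shCtrl and shPDK1_2 over shPDK1_1, by role, filled where the adjusted p was under 0.05. No point is filled in the first panel, 10 are in the second and 5 in the third, all of them above 0.

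Since both hairpin groups share the shCtrl libraries, the hairpins were also compared directly. In this test 5 genes were higher with shPDK1_2 than with shPDK1_1 and 0 were lower (edgeR), where 6.5% of all genes were called higher and 9.78% lower. At an unadjusted p under 0.05, 11 were higher and 0 lower, and DESeq2 called 4 higher and 0 lower. NDUFAF8 differed most, with 14.8, 15.5 and 12.8 CPM in shPDK1_1 and 22.1, 22.6 and 16.9 CPM in shPDK1_2, a log2 difference of 0.52 ± 0.12 (adjusted p 0.0031, edgeR). Its shCtrl libraries, at 18.0 to 19.1 CPM, lay above all shPDK1_1 libraries and within the shPDK1_2 range. NDUFS3 differed by 0.25 ± 0.06, NDUFA11 by 0.25 ± 0.06, NDUFA9 by 0.24 ± 0.08 and NDUFB9 by 0.21 ± 0.05. These 4 were also higher with shPDK1_2 than in shCtrl. The 5 include none of NDUFAF6, NDUFAF2 and NDUFA5, for which the rise with shPDK1_2 was not shown to differ from the values with shPDK1_1. NDUFA5 had 0.28 with shPDK1_1 and 0.27 with shPDK1_2 relative to shCtrl, and the 95% interval of the difference between the hairpins was -0.21 to 0.18. NDUFAF5, the partner of NDUFAF8, had a difference of 0.43 with an adjusted p of 0.0564 (edgeR).

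The lists around complex I were described in the same way. Of all genes tested, 1.62% were called higher and 1.44% lower with shPDK1_1, and 12% and 14.2% with shPDK1_2. In the direct test between the hairpins these shares were 6.5% and 9.78%. With shPDK1_1, 5 of the 7 mitochondrially encoded subunits fell, led by MT-ND6 (-0.25 ± 0.06) and MT-ND4L (-0.23 ± 0.05), while no nuclear gene of complex I passed the test. The median of all 7 was -0.22. With shPDK1_2, 1 of the 7 rose (MT-ND3, 0.22 ± 0.06) and 6 did not pass the test. Set directly against each other, MT-ND1 and MT-ND4 were higher with shPDK1_2 than with shPDK1_1. Of the 38 nuclear genes of complexes II to V, 0 passed the test with shPDK1_1 (edgeR, 11 higher and 0 lower at an unadjusted p under 0.05) and 20 rose with shPDK1_2, led by SDHD of complex II (0.53 ± 0.06) and ATP5MC2 of ATP synthase (0.36 ± 0.05). By sign alone, 33 of the 38 were above 0 with shPDK1_1 and 35 with shPDK1_2. In the direct test between the hairpins 9 of the 38 were higher with shPDK1_2 and 29 did not pass, led by SDHD (0.41 ± 0.06) and ATP5MC1 (0.35 ± 0.09). Of the 7 other mitochondrial proteins, 5 rose with shPDK1_2, led by citrate synthase CS (0.26 ± 0.04) and TOMM22 (0.25 ± 0.07). Of the 13 other assembly factors 0 passed the test with either hairpin relative to shCtrl (edgeR, 1 at an unadjusted p under 0.05 with shPDK1_1 and 3 with shPDK1_2), and FOXRED1 was higher with shPDK1_2 than with shPDK1_1 by 0.29 ± 0.08 (adjusted p 0.0122, edgeR). TFAM rose with shPDK1_2 by 0.21 ± 0.06 and YY1 fell by 0.15, and none of the 9 regulators passed the test with shPDK1_1. Length moved with shPDK1_2 in the opposite direction to that in OSC. The median log2 fold change was 0.067 in the shortest class of all genes and -0.055 in the longest. The 35 complex I genes in the shortest class had a median of 0.085, near that of their class. The 5 in the longest class had 0.265. The part of length was not tested. Of the osteoblast markers, COL1A1 was higher than in shCtrl with both hairpins, by 0.19 ± 0.04 and 0.51 ± 0.04, while RUNX2 was at 17.2 CPM in shCtrl, 16.5 in shPDK1_1 and 14.7 in shPDK1_2 and did not pass the test. The part of these markers in the results was not tested.

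**Figure D5:**
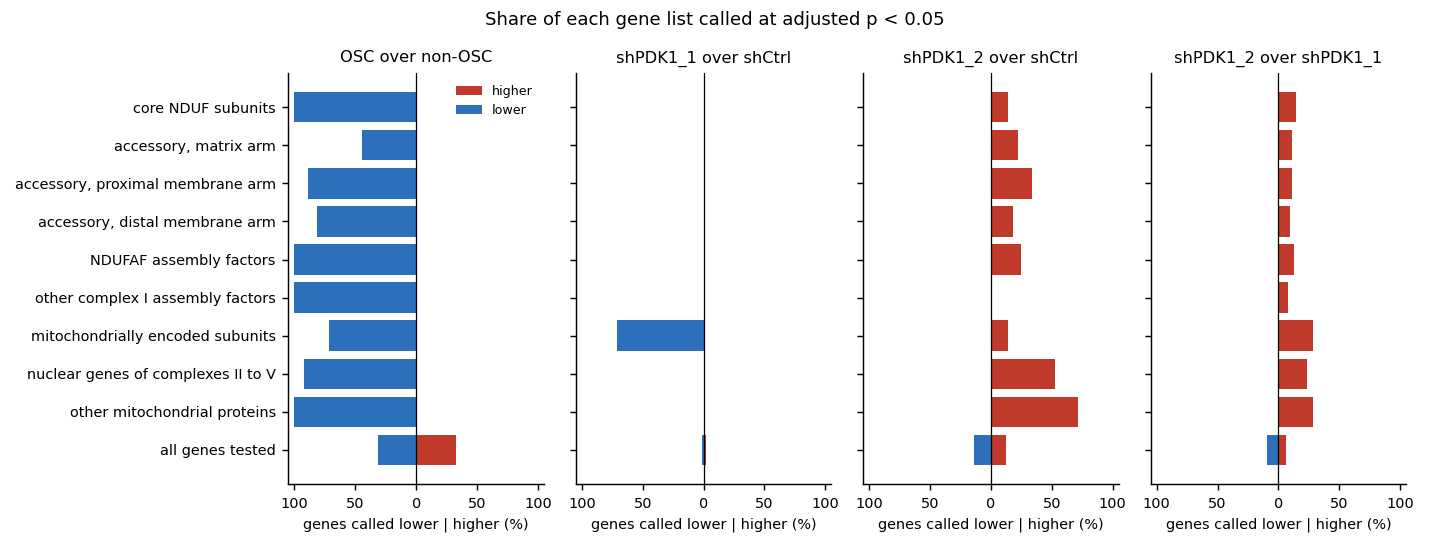
Percent of the genes of each list that were called lower (to the left) or higher (to the right) at an adjusted p under 0.05 in the 4 comparisons. In OSC over non-OSC 7 of 7 core subunits, 8 of 8 NDUFAF factors and 35 of 38 nuclear genes of complexes II to V were lower, and in shPDK1_2 over shCtrl the bars for complex I lists are shorter than those for complexes II to V (20 of 38) and other mitochondrial proteins (5 of 7).

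Across the whole experiment, 9 of the 10 genes that rose with shPDK1_2 were among the 38 that fell in OSC relative to non-OSC (9 of 38), where 38 of all 46 had fallen. The remaining gene was NDUFA5. Over the 46 genes the 2 sets of log2 fold changes had a Pearson correlation of -0.275, and over the 14047 genes in both fits it was -0.31. The 2 comparisons share no libraries, but they share the cell line and the counting, and genes are not independent replicates. The shCtrl libraries were sphere cultures like OSC, but with a control hairpin and from another table. Their mean CPM was between those of OSC and non-OSC for 39 of 46 complex I genes. Every OSC library was below every shCtrl library for 26. NDUFAF4, for example, was at 13.6 to 15.5 CPM in OSC, 22.6 to 23.5 CPM in shCtrl and 27.1 to 30.1 CPM in non-OSC. The same counts were not made over all genes, and each table was scaled on its own. The position of shCtrl can therefore not be called particular to complex I. The tables were not tested against each other, and the hairpin virus and the experiment cannot be told apart.

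Some of these genes share sequence with others, and how the counting treated strand is not given in the sources used here. Of the 48 genes, 25 had no 75-base stretch of exon that occurs in the exons of another gene, and in 13 at least 10% of the stretches did. NDUFV2 had 89%, shared with a pseudogene and an overlapping gene that had 17 to 45 counts together, beside 886 to 1426 for NDUFV2. For NDUFA11, with 63.7%, the overlapping gene had 2 to 10 counts, and for NDUFAF2, with 30.1%, the pseudogene had 0 to 1. For NDUFS7, with 25.7%, the 2 partners had 15 to 35 counts beside 297 to 670 for NDUFS7 itself. Exons of genes on the opposite strand cover 51.45% of the exon bases of NDUFS7. This share was over 10% in 9 of the 48 genes. For NDUFS3, exons of other genes on the same strand cover 16% of the exon bases. NDUFB9, with 15.9%, shares stretches with TATDN1 and the pseudogene NDUFB9P2, which had 166 to 345 counts together beside its own 911 to 1851. Exons of TATDN1 and MTSS1, on the opposite strand, cover 13.19% of the exon bases of NDUFB9. For NDUFA7, with 74.7%, the overlapping gene had 0 to 27 counts beside 91 to 195 for NDUFA7. NDUFA9, with 12.8%, shares stretches with 31 genes that had 5925 to 8498 counts together. NDUFS1, with 11.1%, shares them with genes that had 1535 to 2323 counts together, beside its own 1287 to 2087. The levels of NDUFA9 and NDUFS1 are therefore less certain. The 63 pseudogenes with an NDUF symbol took 17 to 46 counts per library in all.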

How the data were processed

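The 15 libraries were RNA sequencing of 143B cells, made from total RNA with a NEBNext Ultra kit, 3 for each of 5 groups assigned from the labels, with the deposited headings 2D, 3D and con read as adherent, sphere and control. Per the labels, the reads were trimmed with Trimmomatic 0.39, checked with FastQC 0.12.1, aligned with STAR 2.7.11a to GRCh38.p14 and counted with RSEM 1.3.3. The authors deposited the resulting expected counts per gene in 2 tables, 1 for OSC and non-OSC and 1 for the hairpins. Annotation and strand setting are not given in the sources used here. All gene IDs matched GENCODE 44, which gave coordinates and canonical transcript lengths.

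Expected counts, of which 6.848% and 6.923% were not whole, were rounded. Genes were filtered with filterByExpr, leaving 14287 and 14574, scaled by TMM (factors 0.981 to 1.02) and fitted per table with edgeR 4.0.16 (R 4.3.3, limma 3.58.1) by the quasi-likelihood test, with Benjamini-Hochberg adjustment over all genes tested and a threshold of 0.05. CPM are rounded counts per library total scaled by its TMM factor. Fold changes are log2 with SE and 95% intervals. The procedure was tested on simulated counts. Alternatives were DESeq2 1.42.0, library size alone, no filter, at least 10 counts in every library, only the compared groups, a replicate block and leaving out each library. Every gene of the family entered the counts and medians, and 1 of them is not reported here by name or value. By rule, values are given for the core subunits, NDUFA4, the NDUFAF factors, the 5 largest called rises and falls per comparison, and the 2 largest called changes of each other list. The genes and lists were chosen with earlier results of these data known. Promoter words were searched with Python 3.11.15, and plots were drawn with matplotlib 3.10.9.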

Additional observations from a re-analysis of the deposited data

How the results depend on the processing

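Between OSC and non-OSC, 35 to 39 complex I genes were lower and 0 higher under every alternative, and 34 of the 38 calls held under all of them, with NDUFB6, NDUFA7, NDUFV3 and NDUFAF7 the exceptions. For shPDK1_2 over shCtrl, DESeq2 and scaling by library size alone each called 6 genes higher instead of 10, and leaving out 1 library gave 4 to 10. For shPDK1_1 over shCtrl, testing without a filter on low counts called 1 gene higher (NDUFA5) and 1 lower (NDUFC2-KCTD14), and leaving out 1 library gave 0 to 1 higher. For shPDK1_2 over shPDK1_1 the count was 4 to 6. The cause was not tested.

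Replicate numbers did not pair the libraries: same-numbered libraries had correlations of -0.0539 to 0.0948, and not every library correlated best with its own number. With a replicate block, 39 genes were lower in OSC, 0 were called with shPDK1_1, 10 were higher with shPDK1_2, and 6 were higher with shPDK1_2 than with shPDK1_1.

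Of the genes the text names, 12 log2 fold changes near 0 that did not pass the test changed sign when 1 library was left out. The range over the libraries left out was -0.142 to 0.0104 for NDUFB2 in OSC over non-OSC. For shPDK1_1 over shCtrl it was -0.0371 to 0.0398 for NDUFAF4, -0.138 to 0.103 for NDUFAF7, -0.0607 to 0.000353 for NDUFV1 and -0.0463 to 0.0192 for NDUFS3. For shPDK1_2 over shCtrl it was -0.00456 to 0.0372 for NDUFS1, -0.00578 to 0.0426 for NDUFS7 and -0.0152 to 0.0319 for NDUFS8. For shPDK1_2 over shPDK1_1 it was -0.117 to 0.0804 for NDUFA5, -0.00609 to 0.0993 for NDUFAF3, -0.00129 to 0.075 for NDUFV2 and -0.0304 to 0.0173 for NDUFA4. The sign also changed for NDUFAF7 with shPDK1_1 under the replicate block (0.0151) and for NDUFS8 with shPDK1_2 under library size alone (-6.01e-05). No direction can be given for these genes in these comparisons. With shPDK1_1 the half-widths of the 95% intervals were 0.0938 to 0.324, and 3 genes lay beyond theirs without passing the adjusted threshold.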
